A study of Homo sapiens with 4 samples.

Results

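The genes described here encode the recognition and early processing factors of DNA mismatch repair, base excision repair and nucleotide excision repair. They are 36 genes given by symbol: 5 of mismatch repair, 18 of base excision and single-strand break repair and 13 of nucleotide excision repair. Of these, 34 had a probe set annotated to that gene alone and were analysed, out of 18417 genes with such a probe set on the array. Each of the 34 had 1 such probe set. ERCC5 and ERCC6 had only probe sets that they share with another annotated gene, so they have no value of their own here, and nucleotide excision repair was measured through 11 genes. RNA came from MiaPaCa2, an established human pancreatic carcinoma line, and was hybridised to 1-colour Human Gene 1.0 ST arrays. The 2 LY101-4B arrays held RNA from cells treated at 50 µM for 24 h, and the 2 vehicle arrays held RNA from cells given vehicle for 24 h. The series presents LY101-4B as an E2F inhibitor. The protocol attached to every sample conflicts with this, as it speaks of 25 µM LY101-4D; the groups follow the titles, the agent characteristics and the series design, which give 50 µM LY101-4B. All cells were of 1 line, and the design calls the samples of a group biological replicates. The labels give nothing more on how the cultures were separated.

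Background on the 3 routes is as follows. Mismatch repair corrects errors left by the replicative polymerases: a MutS heterodimer finds the mismatch, a MutL heterodimer nicks the new strand, and the stretch is removed and copied again. In base excision repair a DNA glycosylase cuts out a single damaged or misplaced base, an AP endonuclease opens the backbone, and the gap is filled and sealed with help from the PARP enzymes that sense the break. Nucleotide excision repair removes bulky lesions such as ultraviolet photoproducts; the helix is opened by the TFIIH helicases and an oligonucleotide is cut out by paired nucleases. Several of these genes are transcribed mainly in late G1 and S phase, the period governed by E2F.

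With LY101-4B, 11 of the 34 measured repair genes fell, 1 rose and 22 did not pass the test. The test was limma's moderated test with Benjamini-Hochberg adjustment over 21214 gene-annotated probe sets and a threshold of 0.05. Over all 18417 genes 19.6% were called, 10.7% lower and 8.88% higher; over the 21214 probe sets the shares were 19.6%, 10.5% and 9.1%. The members were brighter than most genes, with a median level of 8.17 against 6.50 over all genes. Among the brighter 50% of probe sets 13 of 30 members were called lower, beside 27.1% of the genes there. The falls were uneven. The uracil glycosylase gene UNG (2.88-fold), the glycosylase gene NEIL3 (2.75-fold), the mismatch recognition gene MSH6 (2.63-fold) and the break sensor gene PARP1 (1.99-fold) led them, while 7 of 11 glycosylase genes lay between -0.069 and 0.18 on the log2 scale and did not pass. The gene that rose was ERCC1 (1.68-fold), which encodes the partner subunit of a nucleotide excision nuclease. The median log2 difference was -0.19 over the 34 genes and 0.0047 over all genes. The LY101-4B and vehicle arrays did not overlap for 22 of the 34 genes, against 58% of all genes. All values are log2 RMA values, which set each probe set against the rest of its array, and differences are LY101-4B minus vehicle with the standard error (SE) of the fit. In bulk RNA, fewer cells in a phase of the cell cycle and less RNA per cell cannot be told apart.

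**Figure D1:**
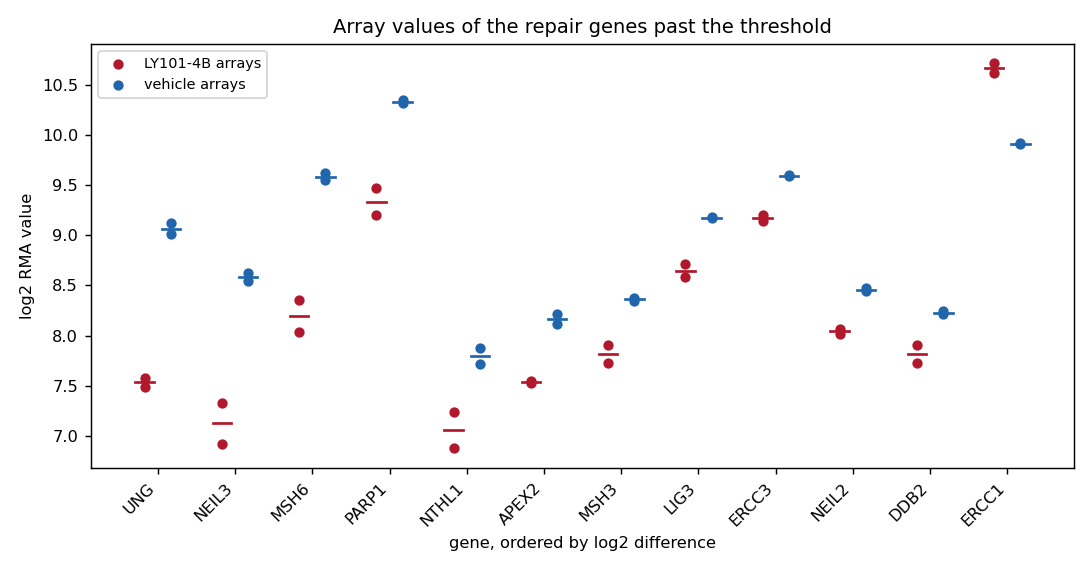
Log2 RMA values (vertical axis) of the 12 repair genes past the threshold, ordered by log2 difference, with each of the 2 LY101-4B arrays (red, left) and 2 vehicle arrays (blue, right) as a point and the group mean as a bar. The 2 groups are apart for every gene drawn, with LY101-4B below vehicle for 11 genes and above it for ERCC1.

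The calls differed in how far they depended on single arrays. UNG, NEIL3, MSH6, PARP1 and ERCC1 passed in all 13 alternative analyses. The count of members that fell was 5 when vehicle replicate 1 was left out, 4 without vehicle replicate 2, 8 without LY101-4B replicate 1 and 12 without LY101-4B replicate 2. Such fits take their spread from fewer arrays. Over all genes the number called lower also went down in these fits, except without LY101-4B replicate 2, where it went up. The change in count is therefore not particular to the repair genes. For 25 of the 34 members (73.5%) the value on LY101-4B replicate 1 was below that on replicate 2, against 58.3% of all genes. The members' median against the vehicle mean was -0.29 on LY101-4B replicate 1 and -0.075 on replicate 2.

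As to the arrays as a whole, each held 33297 values with a median between 5.88 and 5.97. Across the tested probe sets the LY101-4B arrays correlated at r = 0.994, the vehicle arrays at r = 0.997 and arrays of different groups at 0.978 to 0.981. Among markers of the labelled line, KRT8 and KRT18, keratins of simple epithelia, averaged 12.4 and 12.7 and fell by 0.84 and 0.57 with LY101-4B, and VIM, the mesenchymal filament vimentin, averaged 12.6. Among 3 pancreatic ductal and epithelial markers the keratin gene KRT19 averaged 9.17, above the array medians. The adhesion genes EPCAM and CDH1 averaged 3.91 and 4.53, below the array medians. Markers of other cell types lay on both sides of the medians. Above them were the fibroblast genes COL1A1 (6.91) and COL3A1 (6.44) and the acinar gene CELA3A (6.05). Below them were the leukocyte genes PTPRC (3.44), CD3E (5.09) and CD14 (5.74) and the endothelial genes PECAM1 (4.77) and CDH5 (4.93). The acinar genes PRSS1 (4.27) and CPA1 (5.76), the islet gene GCG (3.76) and the fibroblast gene DCN (3.52) were also below. Of 3 fibroblast markers, COL3A1 had a difference of -0.54 ± 0.12 (limma adjusted p 0.0319) and the other 2 did not pass; their part in the repair results was not tested. No detection calls were used here, so it is not known which of these were above background.

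Promoter sequence was examined because the agent is presented as an E2F inhibitor. RefSeq promoter windows (GRCh38.p14, 250 bases before to 50 after a gene's start) were matched by symbol for 33 of the 36 genes; NEIL2, POLB and SMUG1 were not matched. Each window was searched on both strands for the form TTGGCGC, for the form TTCCCGC, for the form TTCGCGC and for the form TTGCCGC, versions of the core that E2F factors are known to bind. Matches of different forms may overlap. A gene with several windows was counted if any of them held a match. Of the members called lower, 7 of 10 held a match, as did ERCC1, the 1 member called higher, and 10 of 20 not past the threshold. Among measured protein-coding genes, 32.9% of those called lower, 22% of those called higher and 19.3% of those not past the threshold held one, and over all 27305 genes with a window 15.3% did. The following stretches show the match, in capitals, for 6 genes that fell and for 2, PMS2 and OGG1, that held one but did not pass. They run 5′ to 3′ on the gene's strand, from the gene's most upstream window.
MSH6, chr2:47783138-47783167, plus strand: tccccccagatTTCCCGCcagcaggagccg
MSH3, chr5:80654524-80654580, plus strand: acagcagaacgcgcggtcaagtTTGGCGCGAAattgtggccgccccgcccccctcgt
UNG, chr12:109097581-109097610, plus strand: cgggccgcTTGGCGCCAAttgctgaccgcc
PARP1, chr1:226408094-226408136, minus strand: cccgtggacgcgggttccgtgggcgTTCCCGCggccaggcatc
APEX2, chrX:55000377-55000406, plus strand: tcgcgcctaggTTGGCGCgggctgggaggt
ERCC3, chr2:127294323-127294379, minus strand: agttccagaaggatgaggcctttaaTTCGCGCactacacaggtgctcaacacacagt
PMS2, chr7:6009117-6009173, minus strand: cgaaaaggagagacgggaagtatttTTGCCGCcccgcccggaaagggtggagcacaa
OGG1, chr3:9749856-9749912, plus strand: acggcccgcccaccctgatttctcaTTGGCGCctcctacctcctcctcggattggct
In UNG and MSH3 a match on each strand overlapped, which gives the longer run of capitals. NEIL3, NTHL1 and LIG3 fell and held none of these letters in their windows. A match is a description of the letters and does not show binding in MiaPaCa2 cells.

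In mismatch repair, both measured MutS genes fell and none of the 3 measured MutL genes passed. MSH6 encodes the MutS subunit for single mismatches and small loops. It had values of 8.03 and 8.35 on the LY101-4B arrays, against 9.55 and 9.62 on the vehicle arrays. The difference was -1.39 ± 0.13 (SE; limma adjusted p 0.002), with the lowest vehicle value 1.2 log2 units above the highest LY101-4B value. MSH3, whose product serves larger insertion and deletion loops, had 7.73 and 7.90 with LY101-4B and 8.38 and 8.35 with vehicle. It fell by 0.55 ± 0.099 (limma adjusted p 0.0155), a smaller value than that of MSH6, and the difference between these paralogues was not tested. The MSH3 call was lost without either vehicle array (adjusted p 0.105 and 0.0893).

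The MutL genes lay on both sides of 0. PMS2 encodes the endonuclease subunit of the main MutL complex. Its probe set had 9.59 and 9.47 with LY101-4B and 9.46 and 9.32 with vehicle, groups that lay only 0.011 apart, and its difference of 0.14 had a 95% interval from -0.10 to 0.39. PMS2 has near-identical pseudogene copies, so its value is uncertain. PMS1, a MutL homologue of less certain role, had 8.02 and 8.23 with LY101-4B and 7.89 and 8.10 with vehicle, overlapping groups, with a difference of 0.13 (interval -0.17 to 0.43). MLH3, a MutL nuclease subunit best known from meiosis, had 6.18 and 6.85 with LY101-4B against 6.80 and 6.90 with vehicle. Only LY101-4B replicate 1 was low, and the difference of -0.33 ± 0.22 did not pass; without LY101-4B replicate 2 it was -0.67 (limma adjusted p 0.0206) and without replicate 1 it was 0.0012.

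Base excision repair held the strongest falls among the glycosylases, the enzymes that choose which base is removed. Of 11 measured glycosylase genes 4 fell and none rose. UNG, which removes uracil from DNA and is known to act at replication forks, had 7.58 and 7.49 with LY101-4B, against 9.01 and 9.12 with vehicle. Both LY101-4B values lay more than 1.4 log2 units below both vehicle values, and the difference was -1.53 ± 0.093 (limma adjusted p 0.0008). NEIL3, a glycosylase of proliferating cells that acts on single-stranded DNA and on crosslinks, had 6.92 and 7.33 with LY101-4B, against 8.62 and 8.55 with vehicle. Its 2 LY101-4B arrays differed by more than its vehicle arrays, yet the groups stayed 1.22 log2 units apart (difference -1.46 ± 0.15, limma adjusted p 0.0027).

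NTHL1, which removes oxidised pyrimidines, had 6.88 and 7.24 with LY101-4B, against 7.88 and 7.71 with vehicle. It fell 1.67-fold (limma adjusted p 0.0193), with a wide 95% interval from -1.09 to -0.38 log2 units. NEIL2, a glycosylase for oxidised bases in open DNA structures, had 8.01 and 8.07 with LY101-4B, against 8.45 and 8.47 with vehicle, and fell 1.34-fold (adjusted p 0.0230). Leaving out vehicle replicate 1 or 2 ended both calls, with adjusted p of 0.0984 and 0.0516 for NTHL1 and 0.151 and 0.170 for NEIL2. The NEIL2 call also ended without LY101-4B replicate 1 (0.0594). The third family member, NEIL1, had 5.85 and 5.51 with LY101-4B and 5.55 and 5.58 with vehicle, and did not pass (0.11 ± 0.13). The NEIL genes therefore had differences of -1.46, -0.42 and 0.11 for NEIL3, NEIL2 and NEIL1, and these were not tested against each other.

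The other 7 glycosylase genes, NEIL1 among them, did not pass and ranged from -0.069 to 0.18. They include OGG1 (0.037 ± 0.10), which removes 8-oxoguanine opposite cytosine, and MUTYH (-0.069 ± 0.084), which removes adenine opposite 8-oxoguanine. NTHL1 belongs to the same structural superfamily as these 2. SMUG1, a second uracil glycosylase, had 6.83 and 7.16 with LY101-4B and 7.04 and 6.98 with vehicle; the vehicle values lay between the LY101-4B values, and the difference was -0.016 (95% interval -0.33 to 0.30). TDG and MBD4, which act on thymine or uracil opposite guanine, had differences of -0.019 ± 0.12 and 0.050 ± 0.11. MPG, the glycosylase for alkylated purines, had 0.18 ± 0.084 (adjusted p 0.214). The signs of OGG1, MBD4, TDG, SMUG1 and NEIL1 turned under at least 1 alternative analysis.

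Past the glycosylases, 3 of 7 base excision and break repair genes fell. PARP1, which senses strand breaks and makes poly(ADP-ribose), had 9.20 and 9.47 with LY101-4B, against 10.32 and 10.34 with vehicle. The gap between the groups was 0.85 log2 units, and the difference was -0.996 ± 0.12 (limma adjusted p 0.0038). Its paralogue PARP2 had a difference of -0.23 ± 0.091 that did not pass (adjusted p 0.153). APEX2, the minor AP endonuclease, which also cleans 3′ ends, had 7.55 and 7.53 with LY101-4B, against 8.12 and 8.22 with vehicle. It fell 1.55-fold (adjusted p 0.0070; 0.0656 without vehicle replicate 2). APEX1, the main AP endonuclease, had non-overlapping groups but did not pass (-0.24 ± 0.091, adjusted p 0.133); it passed among the brighter 50% of probe sets (0.0487) and with an intensity trend (0.0229).

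LIG3, the ligase that seals short patches together with XRCC1, had 8.58 and 8.71 with LY101-4B, against 9.17 and 9.18 with vehicle. It fell 1.44-fold (adjusted p 0.0137), which did not hold without vehicle replicate 1 (0.0942) or 2 (0.0973). Its scaffold XRCC1 had -0.24 ± 0.10 and did not pass (adjusted p 0.163). POLB, the gap-filling polymerase of this route, had 8.32 and 8.27 with LY101-4B and 8.30 and 8.30 with vehicle. These 4 values almost coincide, and the difference of -0.0068 had a 95% interval from -0.22 to 0.20; its sign turned under cyclic loess (0.040).

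**Figure D2:**
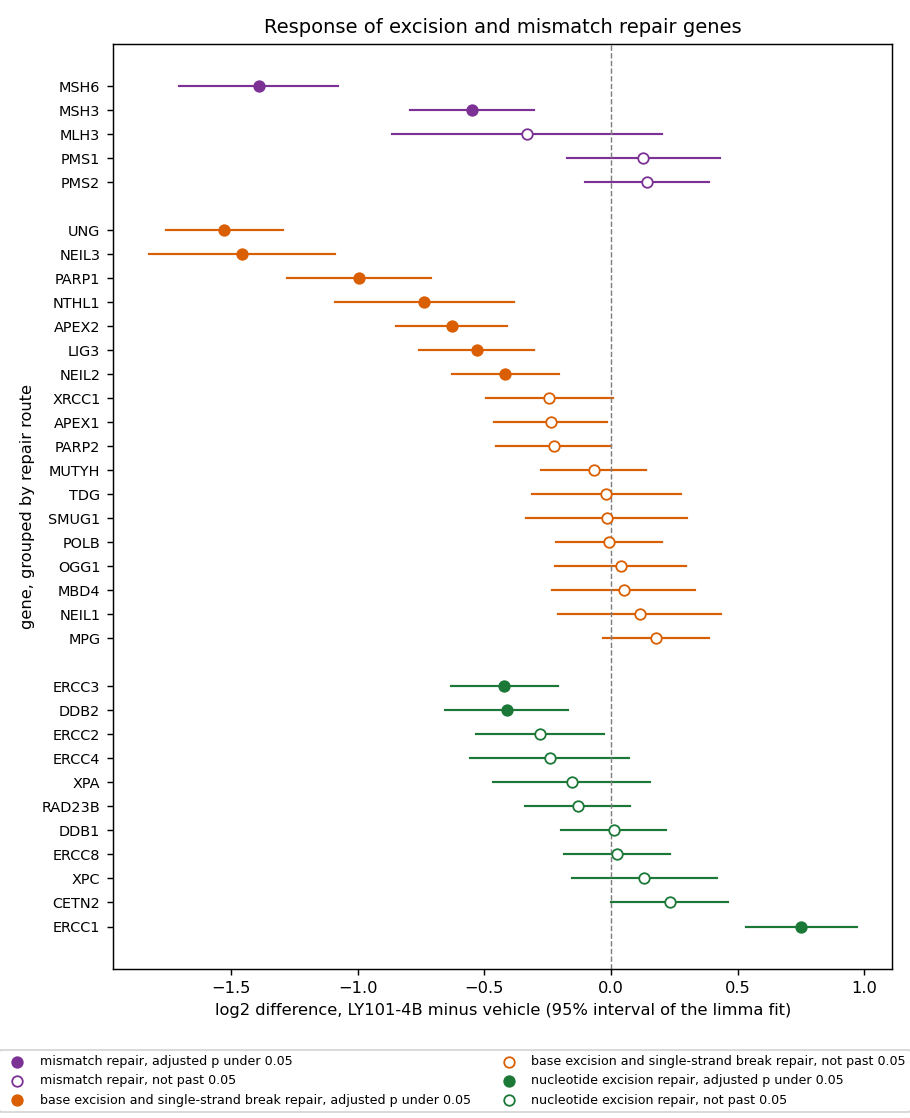
Log2 difference, LY101-4B minus vehicle, of the 34 measured repair genes (horizontal axis; line, 95% interval of the limma fit), grouped by route and ordered within it; filled points passed an adjusted p of 0.05 and open points did not. UNG, NEIL3 and MSH6 lie furthest left, and ERCC1 at 0.75 is the only filled point right of 0.

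In nucleotide excision repair 2 of 11 genes fell and 1 rose. Damage recognition over the whole genome rests on XPC with RAD23B and CETN2, and on the DDB1-DDB2 complex that binds photoproducts. DDB2, a gene known as a p53 target, had 7.73 and 7.90 with LY101-4B, against 8.25 and 8.21 with vehicle, and fell 1.33-fold (limma adjusted p 0.0368). XPC, another known p53 target, had overlapping groups and a difference of 0.13 ± 0.12. DDB1, which also serves as the adaptor of CUL4 ubiquitin ligases, had 10.86 and 10.85 with LY101-4B and 10.87 and 10.83 with vehicle. The DDB1 arrays could not be separated by treatment (difference 0.010, 95% interval -0.20 to 0.22). RAD23B (-0.13 ± 0.084) and CETN2 (0.23 ± 0.094) did not pass; CETN2 reached an adjusted p of 0.0499 under cyclic loess.

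Among the factors that open the helix, the TFIIH helicase gene ERCC3 had 9.14 and 9.20 with LY101-4B, against 9.60 and 9.59 with vehicle, and fell 1.34-fold (adjusted p 0.0222). The second TFIIH helicase gene, ERCC2, had -0.28 ± 0.10 (adjusted p 0.122, or 0.0471 among the brighter 50%), and XPA, which verifies the lesion, had -0.16 ± 0.13. Each of 3 fits that left out 1 array, either vehicle array or LY101-4B replicate 1, ended the calls of both DDB2 and ERCC3 and so left 0 nucleotide excision genes called lower. ERCC8, which detects stalled transcription, had 6.003 and 5.978 with LY101-4B and 5.945 and 5.990 with vehicle, overlapping groups with a difference of 0.023 (95% interval -0.19 to 0.23). Its sign, like that of DDB1, turned when arrays were centred on their medians (-0.041 and -0.055).

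ERCC1 and ERCC4 encode the 2 subunits of the nuclease that cuts 5′ of the lesion. ERCC1 had 10.6 and 10.7 with LY101-4B, against 9.91 and 9.91 with vehicle, a gap of 0.70 log2 units and a difference of 0.75 ± 0.089 (limma adjusted p 0.0041). ERCC4, the catalytic subunit gene, had 6.71 and 7.02 with LY101-4B, against 7.05 and 7.16 with vehicle, and its difference of -0.24 ± 0.13 did not pass (adjusted p 0.260). In the RefSeq gene table ERCC1 overlaps POLR1G, a gene for an RNA polymerase I subunit on the opposite strand, named after its value was seen. POLR1G had 7.03 and 7.04 with LY101-4B and 7.94 and 7.95 with vehicle, and fell by 0.91 ± 0.084 (adjusted p 0.0020), so the 2 overlapping genes were called in opposite directions. MSH6 likewise overlaps FBXO11 on the other strand, also named after its value was seen, whose difference was 0.18 ± 0.096 (adjusted p 0.272). Of the other measured genes that overlap a member, 4 passed, while ALAS2, KLC3, NPRL3, MAN2C1, CAMK1 and PINLYP did not. Over all genes 19.6% were called, and a departure from that share was not tested. These genes were again named after their values were seen. PIP4P1 overlaps APEX1 and had 0.62 ± 0.11 (adjusted p 0.0143), opposite in sign to APEX1 at -0.24. NCBP1 overlaps XPA and had -0.42 ± 0.087 (adjusted p 0.0241), TADA3 overlaps OGG1 and had 0.37 ± 0.092 (0.0426), and TOE1 overlaps MUTYH and had -0.69 ± 0.098 (0.0071). The 3 members concerned, XPA, OGG1 and MUTYH, did not pass. How the array design separates the strands is not given in the sources used here.

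Set side by side, the routes gave medians of -0.33 for mismatch repair (5 genes, -1.39 to 0.14), -0.23 for base excision repair (18 genes, -1.53 to 0.18) and -0.13 for nucleotide excision repair (11 genes, -0.42 to 0.75). Genes called lower made up 2 of 5, 7 of 18 and 2 of 11, beside 10.7% of all genes. Among the brighter 50% of probe sets they made up 2 of 5, 8 of 15 and 3 of 10, beside 27.1% of the genes there. A departure of the routes from either share was not tested. Against the vehicle mean, the medians on LY101-4B replicate 1 and replicate 2 were -0.64 and 0.0012 for mismatch repair, -0.29 and -0.16 for base excision repair, and -0.14 and -0.0053 for nucleotide excision repair. For mismatch repair the 2 LY101-4B arrays differed by more than the medians of the 3 routes did, and the order of the routes was not tested.

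The shared steps that follow excision gave larger values, a contrast that was not tested. Of 20 genes for strand removal, resynthesis and ligation, many of them replication fork genes, 16 fell and 1 rose, with a median of -1.12, beside -0.19 for the 34 members. POLE2, a subunit of polymerase epsilon, fell 4.99-fold, the mismatch repair exonuclease gene EXO1 4.30-fold, the clamp loader gene RFC3 3.95-fold and the sliding clamp gene PCNA 3.63-fold (limma adjusted p 0.0004 to 0.0009). PCNA had 9.33 and 9.30 with LY101-4B, against 11.2 and 11.2 with vehicle. The one that rose was POLD4, the small subunit of polymerase delta (0.49 ± 0.088, adjusted p 0.0150, but 0.106 without vehicle replicate 1 and 0.116 without 2), and the 3 that did not pass were RFC1, RPA3 and POLE4, of which POLE4 passed in 4 alternatives (0.0147 to 0.0407); these 4 were named after their values were seen. Of 4 measured genes that clean the nucleotide pool 3 fell: DUT, the dUTPase that keeps uracil out of DNA (1.72-fold, adjusted p 0.0041), NUDT1, which destroys 8-oxo-dGTP (1.55-fold, 0.0090), and the dNTPase gene SAMHD1 (1.43-fold, 0.0216). DUT had 7.16 and 7.03 with LY101-4B, against 7.89 and 7.87 with vehicle, so it and UNG, which deal with uracil before and after its incorporation, both fell. The NUDT1 call did not hold without vehicle replicate 1 (0.0768), and that of SAMHD1 did not hold without either vehicle array (0.124 and 0.119) or without LY101-4B replicate 1 (0.0523).

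**Figure D3:**
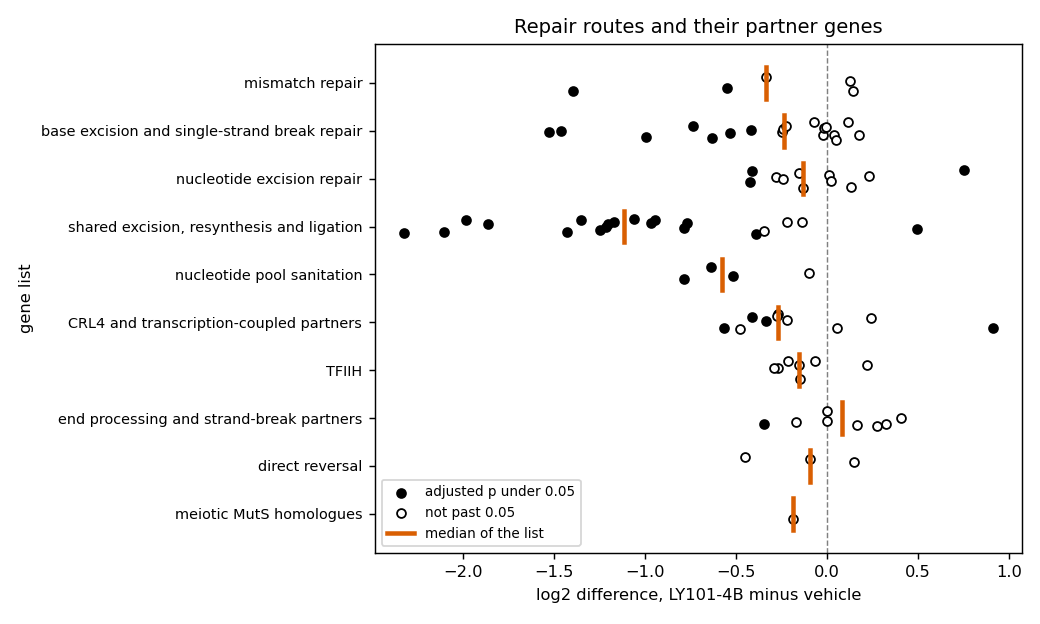
Log2 difference, LY101-4B minus vehicle (horizontal axis), of each measured gene in the 3 repair routes and 7 lists of partner genes; filled points passed an adjusted p of 0.05, open points did not, and the orange bar is the list median. The shared resynthesis list has its median at -1.12, while the TFIIH list has no filled point. The TFIIH helicase genes ERCC2 and ERCC3 are drawn with nucleotide excision repair, where ERCC3 is filled.

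Besides the TFIIH helicase genes ERCC3, which fell, and ERCC2, which did not pass, 7 further TFIIH subunit and kinase genes were measured. None of these 7 passed by limma (adjusted p 0.0724 or more), and GTF2H4 had an unadjusted p of 0.0168. GTF2H4 (-0.29 ± 0.088) and GTF2H3 (-0.27 ± 0.12), core subunits, had the smallest p. GTF2H4 passed with arrays centred on their medians (0.0481) and among the brighter 50% (0.0216), and GTF2H3 without LY101-4B replicate 2 (0.0410). Of 10 CUL4 and transcription-coupled partners 3 fell and 1 rose. Beside this and the other partner lists, 10.7% of all genes were called lower and 8.88% higher, and no list was tested against these shares. The RING subunit gene RBX1 (1.48-fold, adjusted p 0.0093), the XPA-binding splicing factor gene XAB2 (1.33-fold, 0.0307) and ELOF1, an elongation factor of transcription-coupled repair (1.26-fold, 0.0496), fell. None of these 3 calls held without vehicle replicate 1 (adjusted p 0.0771 to 0.266) or 2 (0.0741 to 0.257), that of XAB2 also ended without LY101-4B replicate 1 (0.0793), and that of ELOF1 ended in 9 alternatives in all. TCEA1, which encodes the elongation factor TFIIS, rose 1.88-fold (adjusted p 0.0028; 0.90 log2 units as the mean of its 2 probe sets), with 11.7 and 11.8 with LY101-4B and 10.8 and 10.9 with vehicle.

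Of 8 measured end-processing partners only TDP1, which frees DNA ends from trapped topoisomerase I, fell (1.27-fold, adjusted p 0.0439), and leaving out any single array ended that call (0.0501 to 0.265). The share of this list called lower was 12.5%, near the 10.7% of all genes, and the list median was 0.083. Of 3 direct reversal genes none passed by limma. ALKBH2, a demethylase that follows replication forks, had -0.45 ± 0.13 (unadjusted p 0.0144, adjusted p 0.0653) and passed in 4 of the 13 alternatives (0.0241 to 0.0415), while ALKBH3 had 0.15 ± 0.098. The meiotic MutS homologue MSH4 had -0.18 ± 0.22 and did not pass.

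Several repair genes start back to back with another gene, which allows the response of both sides of 1 start region to be read. Among the promoter windows, 10 members had a protein-coding neighbour on the opposite strand whose start lay within 1000 bases, and 9 pairs were measured on both sides. In 0 of the 9 pairs were both genes called, and in 5 neither was. Only the repair gene was called in 1 pair and only the neighbour in 3. Beside these counts, 19.6% of all 18417 genes were called, and a departure of the pairs from that share was not tested. The neighbours were named after their values were seen. NTHL1 fell, whereas TSC2, the mTORC1 inhibitor gene whose start lies 151 bases away, had 7.43 and 7.47 with LY101-4B and 7.27 and 7.29 with vehicle (0.17 ± 0.085, adjusted p 0.249). MUTYH did not pass, whereas TOE1, an RNA 3′-end nuclease gene starting 50 bases away, had 7.78 and 7.95 with LY101-4B, against 8.53 and 8.59 with vehicle, and fell 1.62-fold (adjusted p 0.0071; 0.0539 without vehicle replicate 2). Likewise XPC did not pass beside LSM3, a splicing factor gene that fell 1.54-fold (adjusted p 0.0078; 0.0696 without vehicle replicate 2). PMS1 did not pass beside ORMDL1, a regulator of sphingolipid synthesis, which rose by 0.51 ± 0.097 (adjusted p 0.0182). The ORMDL1 call did not hold when either vehicle array was left out (0.149 and 0.0629), nor without LY101-4B replicate 2 (0.0506). Within a pair the difference between the 2 genes was not tested.

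**Figure D4:**
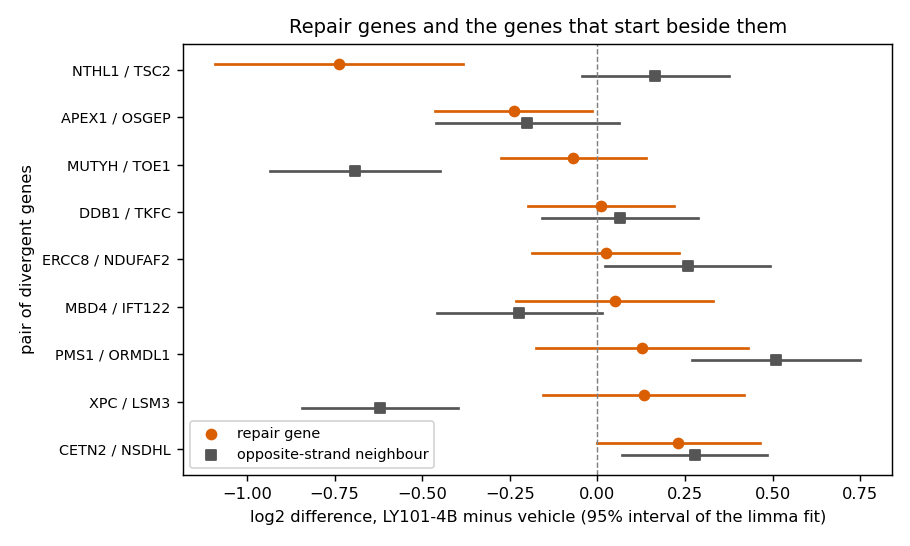
Log2 difference, LY101-4B minus vehicle (horizontal axis; line, 95% interval of the limma fit), of 9 repair genes (orange circles) and of the opposite-strand neighbours that start within 1000 bases (grey squares). The intervals do not overlap for NTHL1 and TSC2, MUTYH and TOE1, and XPC and LSM3.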

How the data were processed

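The deposited table holds log2 values per probe set, which the submitters' processing notes credit to RMA (background correction, quantile normalisation and probe set summary); software, version and probe set definitions were not among the details given there. Probe sets were named from the platform annotation: 19460 of 33297 had 1 gene symbol, 1754 several and 12083 none. Where a gene had several single-symbol probe sets, the one with the highest mean stood for it. The 21214 probe sets with any symbol were fitted with treatment as the only term in limma 3.58.1 (R 4.3.3; lmFit and eBayes, 2 residual degrees of freedom, a prior worth 3.75), 2-sided, adjusted by the Benjamini-Hochberg method. Array number limits the precision. The fit was also run on data simulated from its own model, which cannot show how well that model holds for these arrays.

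The members, lists, motif and tests were chosen with earlier results of these data known. Array values are given for every called member that changed by at least 0.5 and for the 2 least changed of each route; those of NEIL2, DDB2, ERCC3, MLH3, NEIL1 and ERCC4 were added after their values were seen; from each partner list up to 4 called genes with the largest change are named, or the 2 with the smallest p. Genes named otherwise are marked. Alternatives were median centring, cyclic loess, all rows, single-symbol probe sets, the brighter 50%, an intensity trend, a robust prior, a replicate block, leaving out each array and averaging probe sets. Protein sequences were not used here.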

Additional observations from a re-analysis of the deposited data

How the results depend on the processing

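Of the 12 member calls, 5 held in all 13 alternatives (UNG, NEIL3, MSH6, PARP1 and ERCC1). With the replicate number as a block 11 members fell and 1 rose, and no member call changed. Among the partners 21 fell and 3 rose with the block, against 23 and 2 as reported; ELOF1 and TDP1 were lost (adjusted p 0.0610 and 0.0523) and 1 higher call was gained. Across the tested probe sets, the deviations of LY101-4B replicate 1 and vehicle replicate 1 from their group means correlated weakly (r = 0.12). The main fit did not take the numbers as pairs. Over all 33297 rows 6 members fell: 1 of mismatch repair, 5 of base excision repair and 0 of nucleotide excision repair. That setting changed both the number of tests and the SE of the fit, and their parts were not tested. There 1 partner gene rose, against 2 in the analysis as reported. Under cyclic loess 2 members rose, both of nucleotide excision repair. Leaving out 1 array gave 4 to 12 members lower: 1 to 3 of mismatch repair, 3 to 7 of base excision repair and 0 to 2 of nucleotide excision repair, and 1 to 2 partner genes higher. The mismatch repair median then ranged from -0.64 to 0.0012 and that of nucleotide excision repair from -0.14 to -0.0053.

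Signs turned for MLH3 (-0.33 as reported), MSH4 (-0.18), the mismatch repair median and values that as reported were at most 0.13 in size (XPC). Centring on medians gave -0.027 for OGG1, -0.015 for MBD4, -0.041 for ERCC8, -0.055 for DDB1 and -0.0012 for TKFC, the neighbour of DDB1. Cyclic loess gave -0.0030 for OGG1, 0.040 for POLB and -0.021 for ERCC8. Leaving out 1 array moved OGG1 between -0.070 and 0.15, MBD4 between -0.070 and 0.17, SMUG1 between -0.18 and 0.15, TDG between -0.15 and 0.11, DDB1 between -0.0094 and 0.030, MLH3 between -0.67 and 0.0012, NEIL1 between -0.055 and 0.28, POLB between -0.030 and 0.016, XPC between -0.0039 and 0.27 and MSH4 between -0.51 and 0.14. Over 1 probe set per gene, 1973 genes fell and 1636 rose. The counts were 981 and 846 over all rows, 766 and 651 without vehicle replicate 1, 715 and 734 without vehicle replicate 2, and 2405 and 1298 with median centring. The causes of these shifts were not tested.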

Other observations

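Probe sets annotated to several genes were left out of the comparisons above, and 3 kinds of them touch the repair genes. The probe set shared by ERCC6, the transcription-coupled repair ATPase gene, and PGBD3, a transposase-derived gene, had 8.03 and 8.06 on the LY101-4B arrays, against 8.69 and 8.69 on the vehicle arrays (difference -0.64 ± 0.084, limma adjusted p 0.0056). The one shared by ERCC5, the gene of the nuclease that cuts 3′ of the lesion, and its read-through transcript BIVM-ERCC5 had 8.62 and 8.86 with LY101-4B, against 8.29 and 8.23 with vehicle (difference 0.48 ± 0.11, adjusted p 0.0325). Which of the annotated genes gives these signals cannot be told apart. The 8 probe sets shared by PMS2 and its pseudogenes had differences from 0.32 to 0.40, and 6 of them were called higher. They are annotated to overlapping sets of genes and are not independent measurements.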
